A study of Mus musculus with 32 samples.

Results

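The expression of 9 genes that coat or enlarge lipid droplets, or that decide which tissue receives circulating lipid, was followed in regenerating and in embryonic mouse liver. They were Plin2, Plin4 and Plin5 (perilipins), Cidec and Cidea (CIDE proteins), Angptl4 and Angptl8 (angiopoietin-like proteins), Mfsd2a and Lpin1, among 18194 genes measured. The genes were named with earlier results of these data known, so the adjusted p-values below describe these genes and are no independent support for the choice. For each gene the probe set with a single listed symbol was chosen by its mean over all 32 arrays, the highest being kept. All 9 genes had such a probe set. Lpin1, Plin5 and Angptl4 had 2 each, and the closest choice was for Lpin1, where the means over all arrays were 353 for the probe set kept and 352 for the other.

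The animals were CD-1 mice, and RNA was hybridised to Affymetrix Mouse Genome 430 2.0 arrays in 16 groups of 2 arrays, each array holding a pool of at least 3 tissues. Regenerating liver was taken from 10-week-old females at 9 times between 1 and 72 h after partial hepatectomy, in which the anterior lobes and the gallbladder were removed under ketamine and xylazine and buprenorphine was given afterwards. Embryonic liver was dissected at 6 stages between 10.5 and 16.5 dpc (days after conception); the stage was read from titles and source names, since other label fields of these samples conflict with them. Both were set against liver labelled normal from females of the same age, called time 0. No sham-operated group is among the arrays, the labels do not give feeding state or time of day, and no lipid was measured, so every value is an RNA level.

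Liver stores surplus fatty acid as triglyceride in droplets, and perilipins on the droplet surface limit the access of lipases while CIDE proteins let small droplets pass their lipid to larger ones. Angiopoietin-like proteins are secreted and hold back lipoprotein lipase, and so direct the triglyceride of the blood towards or away from a tissue. After partial hepatectomy the remaining rodent liver is known to fill with lipid droplets for a time before and during the first round of cell division.

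Levels are given as the deposited intensities, on a linear scale, and changes as differences of log2(intensity + 16), which understates the change of dim probe sets. The median of all values was 74.6. A gene was called raised or lowered at an adjusted p under 0.05 in a limma fit to all 32 arrays, with Benjamini-Hochberg adjustment over all 18194 genes of a comparison. The labels say only that the arrays of a group are separate pools, so these p-values measure the spread between pools. Because the tissue is bulk, more cells of a type and more RNA per cell cannot be told apart. The pair of 48 h arrays was the least alike of all groups (correlation 0.88), and the second of them had a 3′ to 5′ log2 ratio of 1.22 for Gapdh, against -0.44 to 0.32 on the other adult arrays. The first array of 10.5 dpc had the highest such Gapdh ratio of all, 1.49, against -0.32 on the second. The arrays of time 0 also differed from each other in several of the genes below, and values without 1 of them are given beside the results. Alb, the main secreted protein of hepatocytes, was at 956 and 1541 at 10.5 dpc, at 6058 to 8941 on later embryonic arrays and at 7277 to 10738 on adult arrays, with Afp between 4525 and 6574 on embryonic arrays against 1.34 to 27.8 on adult ones.

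The promoters of the genes that moved together, and of the one that moved the other way, are shown because they give the sequence around each start site. RefSeq promoter windows (build GRCm38.p6, from 250 bases before to 50 bases after the start) were at hand for 7 of the 9 genes, all but Angptl4 and Cidea. Both strands were searched for the nuclear receptor core motif AGGTCA, which receptors of the PPAR type bind in pairs, the E-box CACGTG, the glucocorticoid receptor core motif AGAACA, the cyclic AMP response element core TGACG and TATAAA. Capitals mark a match to any of these on either strand.
Plin2, chr4:86670010-86670309, minus strand: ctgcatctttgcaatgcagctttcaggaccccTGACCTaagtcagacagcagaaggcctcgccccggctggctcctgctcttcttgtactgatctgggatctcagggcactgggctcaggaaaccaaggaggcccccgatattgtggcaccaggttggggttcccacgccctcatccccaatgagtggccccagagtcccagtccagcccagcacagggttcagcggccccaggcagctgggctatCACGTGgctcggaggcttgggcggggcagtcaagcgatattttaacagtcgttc
Cidec, chr6:113435711-113436010, minus strand: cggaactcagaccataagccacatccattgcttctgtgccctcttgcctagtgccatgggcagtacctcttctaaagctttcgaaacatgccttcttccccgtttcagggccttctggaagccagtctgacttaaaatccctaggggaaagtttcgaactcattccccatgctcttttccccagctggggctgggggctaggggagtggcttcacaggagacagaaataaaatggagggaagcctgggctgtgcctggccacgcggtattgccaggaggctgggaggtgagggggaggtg
Mfsd2a, chr4:122961139-122961438, minus strand: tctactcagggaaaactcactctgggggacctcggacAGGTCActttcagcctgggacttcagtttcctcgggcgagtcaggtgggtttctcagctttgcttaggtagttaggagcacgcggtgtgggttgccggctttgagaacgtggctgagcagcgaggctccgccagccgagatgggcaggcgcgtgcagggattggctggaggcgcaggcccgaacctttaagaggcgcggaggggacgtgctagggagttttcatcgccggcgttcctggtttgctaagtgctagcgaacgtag
Lpin1, chr12:16610917-16611216, minus strand: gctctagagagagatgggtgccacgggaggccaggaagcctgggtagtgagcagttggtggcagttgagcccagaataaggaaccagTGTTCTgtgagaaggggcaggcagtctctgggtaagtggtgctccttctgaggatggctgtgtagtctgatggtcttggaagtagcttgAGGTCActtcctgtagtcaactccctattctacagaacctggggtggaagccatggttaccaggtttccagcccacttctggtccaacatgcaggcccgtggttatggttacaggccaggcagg
Angptl8, chr9:21835260-21835559, plus strand: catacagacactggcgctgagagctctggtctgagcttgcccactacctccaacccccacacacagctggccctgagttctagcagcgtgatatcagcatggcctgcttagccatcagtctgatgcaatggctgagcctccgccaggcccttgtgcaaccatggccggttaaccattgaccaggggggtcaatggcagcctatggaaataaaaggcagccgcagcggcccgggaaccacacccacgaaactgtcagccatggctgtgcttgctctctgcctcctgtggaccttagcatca
AGGTCA matched in the windows of Plin2 (reverse strand, 218 bases before the start), Mfsd2a (213 bases before it), Lpin1 (74 bases before it) and Plin5. Of 32851 windows of the same length, 16.3% hold that match. The Plin2 window also holds CACGTG at 4 bases before the start, a match found in 7.15% of windows. AGAACA matched in the Lpin1 window on the reverse strand, 163 bases before the start, and in 19% of windows. These letters were not found in the windows of Plin4, Cidec (either of its 2 windows) or Angptl8. TGACG (20.8% of windows) and TATAAA (13.6%) matched in none of the members' windows, and 2 copies of AGGTCA with 1 base between them were in 0.0396% of all windows and in none of these. The Lpin1 window lies inside the gene, which spans 16535669 to 16653903 on chromosome 12, so the start it surrounds is an internal one. A match is a run of letters and does not show binding.

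After hepatectomy the genes moved in steps. Mfsd2a and Lpin1 were high from the first hour, Angptl4 and Cidec from 6 h, Plin2 at 12 and 18 h and Plin4 at 18 h, while the mean of Angptl8 was lowest at 12 h. At 1 to 6 h against time 0, 2 genes were raised (Mfsd2a and Lpin1), where 0.726% of all genes were raised, and 1 was lowered (Angptl8), where 0.253% were lowered. At 12 to 30 h, 5 genes were raised (Plin2, Cidec, Angptl4, Mfsd2a and Lpin1) and 0 were lowered, against 2.61% and 2.18% of all genes. At 48 to 72 h against time 0 limma called 0 raised and 0 lowered, against 2.01% and 0.638% of all genes, with 2 members at an unadjusted p under 0.05. The median log2 change of the 9 genes was 0.58, 1.14 and 0.10 in these 3 phases, beside 0.00 over all genes in each.

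The single times showed when each step occurred. At 1 h the count was 2 raised and 0 lowered, and at 2 h it was the same, in comparisons that called 0.484% and 0.572% of all genes in either direction. At 6 h, 4 were raised and 1 lowered (2.12% of all genes called), at 12 h 5 were raised and 1 lowered (8.88%), and at 18 h 6 were raised and 0 lowered (7.73%). At 24 h, 30 h and 48 h limma called 0 members, where it called 1.25%, 0.352% and 1.5% of all genes, and 4, 1 and 1 members had an unadjusted p under 0.05. At 72 h 1 member, Lpin1, was raised (3.14% of all genes called). All these comparisons share the 2 arrays of time 0, and they borrow the estimate of spread from all 32 arrays. With only the arrays compared in the fit, 1 member (Mfsd2a) was called at 1 to 6 h and 0 at 12 to 30 h by limma. In the F test over the 9 times, 7 members were called, all but Plin5 and Cidea, against 18.2% of all genes.

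**Figure D1:**
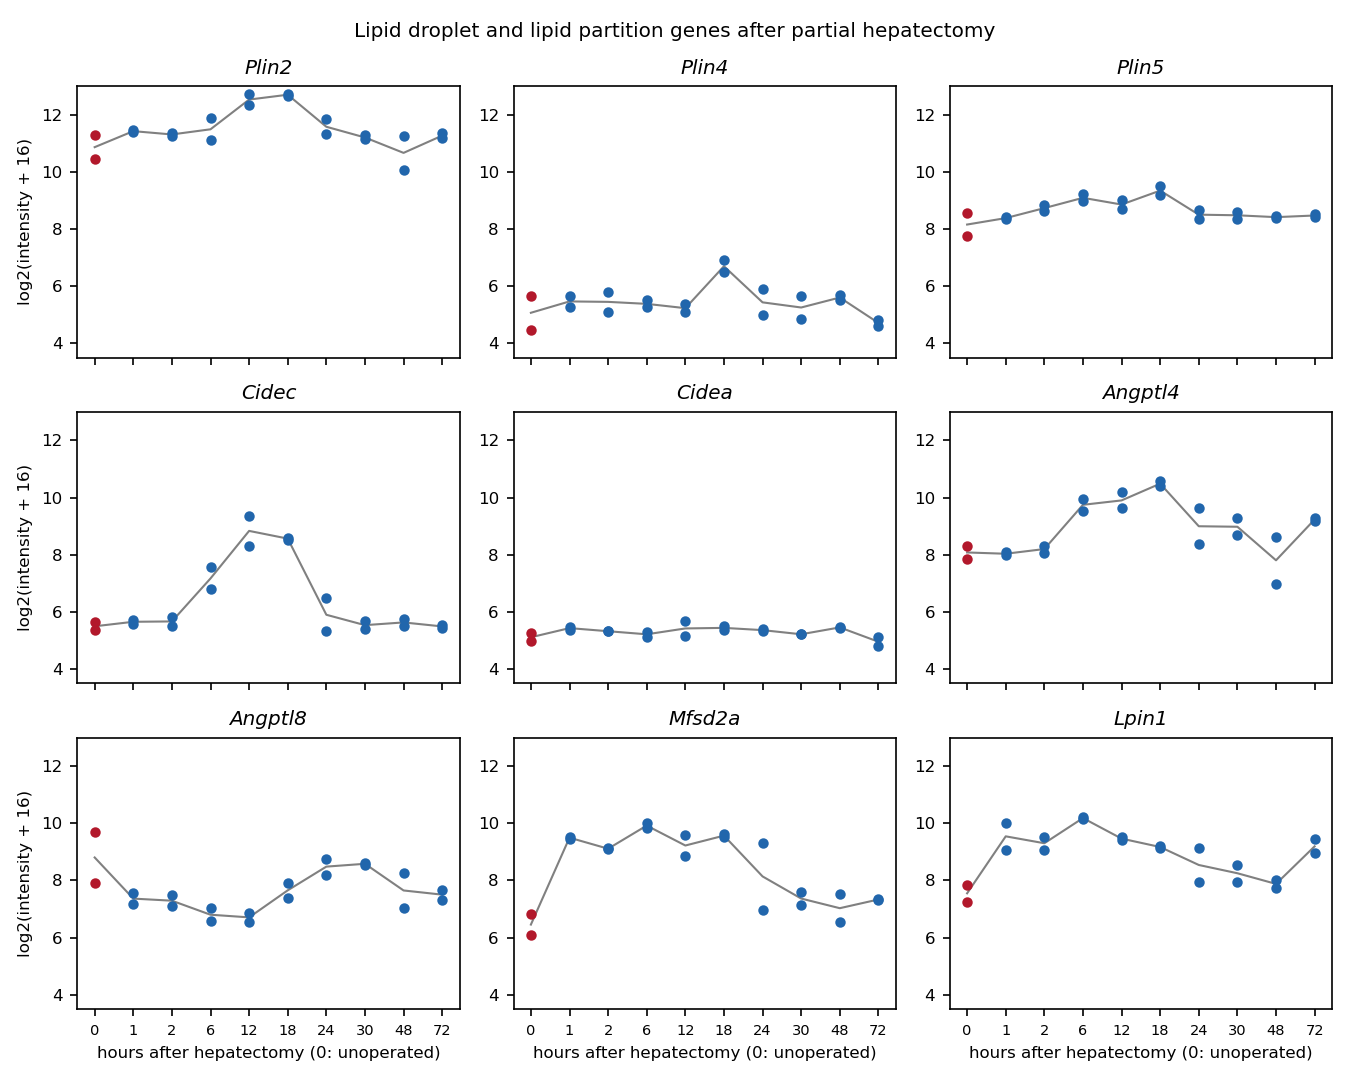
Level of each gene, as log2(intensity + 16), on each of the 20 adult arrays by hours after hepatectomy (not to scale in time), with red points for time 0, blue points for regenerating liver and a line through the group means. Mfsd2a and Lpin1 are up from 1 h, Cidec peaks at 12 h (471 on average, against 29.3 at time 0), Plin4 stands out at 18 h, and Angptl8 is lowest at 12 h.

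Plin2, the main perilipin of hepatocyte droplets, whose protein is stable only when bound to lipid, had intensities of 1365 and 2485 (time 0), 2645 and 2807 (1 h), 2440.5 and 2589 (2 h), 3724 and 2181 (6 h), 6759 and 5112 (12 h) and then 6798 and 6434 (18 h). Later it had 2519 and 3648 (24 h), 2451 and 2223 (30 h), 2433 and 1053 (48 h) and then 2296 and 2599 (72 h). The 4 arrays of 12 and 18 h lay above every other adult array. The means of 18 h (6616 ± 257) and 12 h (5936 ± 1165, SD, n = 2 each) overlapped, and no other time overlapped with either. Plin2 was 3.57-fold above time 0 at 18 h (log2 change 1.83 ± 0.33 SE, adjusted p = 0.0012) and 3.17-fold at 12 h (adjusted p = 0.00237). Over 12 to 30 h as a whole it rose by 1.14 ± 0.26 (adjusted p = 0.0128). Without the first array of time 0, the lower one, the changes were 0.71 over 12 to 30 h (adjusted p = 0.38) and 1.24 at 12 h (adjusted p = 0.0619), while the call at 18 h was kept.

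Plin5, a perilipin of oxidative tissues that ties droplets to mitochondria, had 358 and 200.3 (time 0), 328 and 306 (1 h), 381 and 436 (2 h), 575 and 485 (6 h), 498 and 400.0 (12 h) and then 703 and 568 (18 h). From 24 to 72 h its 8 arrays lay between 308 and 388. The arrays of 2, 6, 12 and 18 h lay above both of time 0. The largest difference, 1.19 ± 0.37 at 18 h against time 0, had an adjusted p of 0.0529. On the probe set kept, Plin5 passed the test at none of the times. Its other probe set, with a mean of 133 over all arrays against 266, differed from time 0 by 0.55 at 1 to 6 h. That probe set differed by 0.87 at 12 to 30 h and by -2.97 in the embryo.

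Plin4, a perilipin best known from adipocytes and muscle, was dim. It had 73.9 and 103 at 18 h and 8.58 to 43.0 on the other regenerating arrays, against 34.6 and 6.15 at time 0. The arrays of 18 h lay above all other adult arrays, and those of 72 h (11.9 and 8.58) lay below all other regenerating arrays. Plin4 was raised at 18 h, 3.09-fold over time 0 (log2 change 1.63 ± 0.37, adjusted p = 0.00865). The call was lost when the second array of time 0, the dimmest, was left out (1.03, adjusted p = 0.191) and when the second array of 18 h was (1.43, adjusted p = 0.103).

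Cidec, also known as Fsp27, promotes the growth of large droplets and is scarce in lean liver. Its probe set gave 25.0 and 33.6 (time 0), 36.5 and 32.1 (1 h), 40.9 and 29.2 (2 h), 172 and 94.3 (6 h), 643 and 299 (12 h) and then 371 and 353 (18 h). Later it gave 23.8 and 73.4 (24 h), 26.0 and 35.2 (30 h), 29.7 and 37.7 (48 h) and then 27.6 and 30.3 (72 h). The 6 arrays of 6, 12 and 18 h were the highest of the adult series, and all other times lay near time 0 except the second array of 24 h. Cidec was raised 3.19-fold at 6 h (adjusted p = 0.00797), 10.1-fold at 12 h (log2 change 3.34 ± 0.34, adjusted p = 3.55e-06) and 8.39-fold at 18 h (adjusted p = 9.28e-06) against time 0. Leaving out any of the 32 arrays kept the calls at 12 h, at 18 h and over 12 to 30 h (1.57 to 1.86 for the last). The call at 6 h was lost without the first array of time 0 (1.54, adjusted p = 0.106) and without the first array of 6 h (1.29, adjusted p = 0.227). The 12 h arrays differed in 3′ to 5′ log2 ratio of Actb (0.57 and 1.39) and of Gapdh (-0.29 and 0.30), in the order opposite to their Cidec levels. Each of the genes followed here, Angptl8 included, was lower on the second 12 h array than on the first. The part of RNA quality in these gaps was not tested.

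Cidea, the CIDE protein of brown fat that is switched on in fatty liver, stayed at 11.7 to 35.1 on all 20 adult arrays, below the median of all values. It was called at none of the times after hepatectomy. A filter on dim genes removed it and kept the other 8.

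Angptl4, a target of PPAR receptors and of fasting that inhibits lipoprotein lipase, gave 212 and 304 (time 0), 255 and 237 (1 h), 254 and 304 (2 h), 984 and 721 (6 h), 1143 and 770.1 (12 h) and then 1337 and 1503 (18 h). It then gave 313 and 775 (24 h), 601 and 396 (30 h), 378 and 111 (48 h) and then 557 and 615 (72 h). On the probe set kept, the step came between 2 and 6 h. The arrays of 18 h were above all others, and those of 24, 30 and 72 h still lay above both of time 0. Angptl4 was raised 3.18-fold at 6 h (adjusted p = 0.0201), 3.53-fold at 12 h (adjusted p = 0.00358) and 5.31-fold at 18 h (log2 change 2.41 ± 0.38, adjusted p = 0.000349). Over 12 to 30 h it rose by 1.51 ± 0.30 (adjusted p = 0.00441), and differed by 1.27 (adjusted p = 0.13) without the first array of time 0. That array also carries the calls at 6 h (1.42 without it, adjusted p = 0.232) and 12 h (1.58, adjusted p = 0.0545), and the first array of 6 h carries that at 6 h (1.45, adjusted p = 0.283). The second probe set of Angptl4 is dim, with a mean of 13.5 over all arrays, and differed from time 0 by 0.31 over 12 to 30 h (adjusted p = 0.555) and by 1.48 at 1 to 6 h, and by 0.44 at 12 h (adjusted p = 0.402) and 0.30 at 18 h (adjusted p = 0.651). The fit that used this dim probe set kept the call at 6 h and called 4 members instead of 3 at 1 to 6 h. The calls at 12 h, at 18 h and over 12 to 30 h, and the timing given above, are thus those of the brighter probe set alone.

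Angptl8, induced by feeding and insulin, acts with a related protein to restrain lipoprotein lipase in muscle. Its levels were 805 and 228 (time 0), 174 and 127 (1 h), 164 and 121 (2 h), 79.9 and 114 (6 h), 102 and 77.1 (12 h) and then 227 and 151 (18 h). They were 420.2 and 278 (24 h), 378 and 358 (30 h), 289 and 116 (48 h) and then 144.9 and 189 (72 h). Every array of 1 to 18 h and of 72 h lay below both of time 0 (at 18 h by a hair, 227 against 228), while 24, 30 and 48 h overlapped with it. Angptl8 was lowered at 6 h (4.01-fold, adjusted p = 0.0067) and 12 h (-2.10 ± 0.40, adjusted p = 0.00154), and fell by 1.65 ± 0.32 over 1 to 6 h (adjusted p = 0.00921). The first array of time 0 decides the size: without it the change was -0.78 at 1 to 6 h (adjusted p = 0.699), -1.13 at 6 h (adjusted p = 0.216) and -1.22 at 12 h (adjusted p = 0.0532). Without the first array of 6 h the change there was -1.78 (adjusted p = 0.126).

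Mfsd2a carries lysophosphatidylcholine with long-chain fatty acids into cells and is induced by fasting in liver. It had 96.5 and 52.6 (time 0), 722 and 692 (1 h), 543 and 531 (2 h), 904 and 1006 (6 h), 763 and 443 (12 h) and then 767 and 721 (18 h). The later levels were 111 and 615 (24 h), 124.9 and 178 (30 h), 169 and 76.6 (48 h) and then 144 and 146 (72 h). All 10 arrays of 1 to 18 h stood far above time 0, and the 2 arrays of 24 h split, the first near time 0 and the second near the early level. Mfsd2a was raised 8.23-fold at 1 h (log2 change 3.04 ± 0.46, adjusted p = 0.00099), by 3.46 on the log2 scale at 6 h (adjusted p = 0.000113) and 8.65-fold at 18 h (adjusted p = 0.000188). Over 1 to 6 h the rise was 3.05 ± 0.37 (adjusted p = 5.63e-05), which leaving out any of the 32 arrays kept between 2.70 and 3.41. Over 12 to 30 h it was 2.12 ± 0.36 (adjusted p = 0.0013), and 1.76 (adjusted p = 0.0662) when the second time 0 array was left out. At 2 h the change was 2.65 ± 0.46 (adjusted p = 0.00388), with an adjusted p of 0.0828 without that array and of 0.055 and 0.0573 without either array of 2 h.

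Lpin1 encodes a phosphatidate phosphatase that makes the diacylglycerol used for triglyceride and that also acts with PPAR alpha as a coactivator. It had 137 and 214 (time 0), 520.4 and 1024 (1 h), 521 and 726 (2 h), 1118 and 1177 (6 h), 718 and 665 (12 h) and then 552 and 569 (18 h). Later values were 233 and 542 (24 h), 359 and 232 (30 h), 243 and 198 (48 h) and then 680.4 and 477 (72 h). Arrays of 48 h were the only regenerating ones to overlap with time 0, and 72 h was high again. Lpin1 was raised 3.98-fold at 1 h (adjusted p = 0.00544), 6.20-fold at 6 h (log2 change 2.63 ± 0.35, adjusted p = 0.000115) and 3.12-fold at 72 h (adjusted p = 0.00868). Over 1 to 6 h it rose by 2.13 ± 0.29 (adjusted p = 0.000171), kept between 1.83 and 2.42 by leaving out any array, and over 12 to 30 h by 1.31 ± 0.28 (adjusted p = 0.00732). Without the first array of time 0 the change was 1.01 over 12 to 30 h (adjusted p = 0.208), 1.70 at 1 h (adjusted p = 0.133) and 1.35 at 72 h (adjusted p = 0.124). Leaving out the second array of 1 h gave 1.52 there (adjusted p = 0.255), and leaving out the first array of 72 h gave 1.39 there (adjusted p = 0.145). The calls at 2 h (1.75) and 18 h (1.62) were also lost without the first array of time 0 (1.46 and 1.32, adjusted p = 0.263 and 0.0807). Its other probe set differed from time 0 by 2.15 at 1 to 6 h and by 1.22 at 12 to 30 h.

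**Figure D2:**
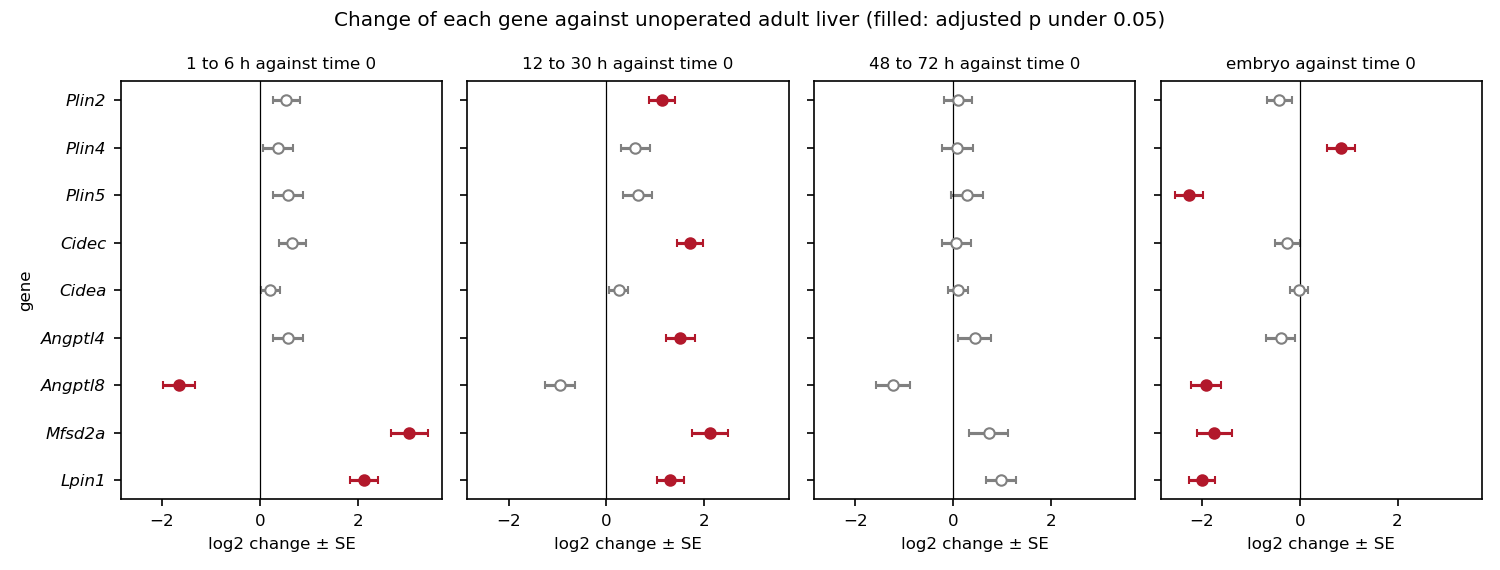
Log2 change of each gene against time 0, with its SE from limma, at 1 to 6 h, 12 to 30 h and 48 to 72 h and in the mean of the 6 embryonic stages; filled red points have an adjusted p under 0.05. At 12 to 30 h 5 genes are filled, all to the right of 0, and at 48 to 72 h none is.

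The decline was tested by setting 48 to 72 h against 12 to 30 h, a comparison without the arrays of time 0. Its 12 to 30 h side holds high and already lower times, so it does not date the fall. At 18, 24, 30 and 48 h Cidec averaged 362, 48.6, 30.6 and 33.7. Plin2 averaged 6616, 3083, 2337 and 1743 at these times, and Mfsd2a 744, 363, 151 and 123. In this comparison 0 members were raised and 4 were lowered, against 4.09% and 1.58% of all genes. The lowered share rests on the 48 h arrays: 287 genes were lowered with all arrays, 2053 without the first array of 48 h and 158 without the second, with 4 and 3 members called. Plin2 fell by 1.04 ± 0.20 (adjusted p = 0.00276), Cidec by 1.65 ± 0.21 (adjusted p = 2.45e-05), Angptl4 by 1.07 ± 0.23 (adjusted p = 0.00684) and Mfsd2a by 1.39 ± 0.28 (adjusted p = 0.00375). Lpin1 differed by -0.32 ± 0.21 (adjusted p = 0.478), with 72 h above 48 h. With both arrays of 48 h left out the change of Angptl4 was -0.36 (adjusted p = 0.468), and it was -0.66 (adjusted p = 0.0556) without the second of them alone. Its call was also lost with array weights (adjusted p = 0.0588) and on its other, dim probe set (-0.08, adjusted p = 0.873). The call of Mfsd2a was lost with a constant of 1 (adjusted p = 0.0559) and with array weights (adjusted p = 0.0788). The fall of Cidec was called in each of the 12 alternative settings and with each array left out.

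The 24 h arrays differed in most of these genes. The second array had more Plin2, Cidec, Angptl4, Mfsd2a and Lpin1 than the first, 615 against 111 for Mfsd2a and 73.4 against 23.8 for Cidec, and less Angptl8, 278 against 420.2. With both 24 h arrays left out, 6 members instead of 5 were called at 12 to 30 h.

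Across the 10 adult group means the genes formed 2 courses that share their arrays, given here as a description. Plin2 followed Cidec (r = 0.904) and Angptl4 (r = 0.84), and Lpin1 followed Mfsd2a (r = 0.887), while Angptl8 ran against Lpin1 (r = -0.829) and Mfsd2a (r = -0.724). Among genes that passed the overall median in some group, those nearest to Cidec were Slc22a5, the carnitine transporter (r = 0.985), Gnl2 (r = 0.978) and Mrap (r = 0.975), whose mean was 4232 at 12 h against 346 at time 0. Most like Mfsd2a were Gadd45g (r = 0.956), Dot1l and Nrbf2, and most like Lpin1 were Ell2 (r = 0.968), Haus8 and Dot1l. Plin2 was nearest to Rps27, Bdp1 and Slc10a3 (r = 0.97 to 0.955), Angptl4 to Eif4ebp1, Clp1 and Smn1 (r = 0.967 to 0.957), and Plin5 to Pdk3, Tor1b and 1810055G02Rik (r = 0.958 to 0.903). For Plin4 they were 1700008J07Rik, H2-T3 and Ctnnbl1 (r = 0.926 to 0.873), and for Angptl8 Cd163, Chd3 and Gpr182 (r = 0.929 to 0.895).

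Most other lipid genes did not move with these 9 genes past the test. Of 18 other lipid droplet proteins measured, 1 was raised at 1 to 6 h, Hilpda, an inhibitor of the lipase Pnpla2, by 2.44 ± 0.28 (adjusted p = 2.2e-05). Its means were 22.0 at time 0, 161 at 1 h, 279 at 2 h and 172 at 6 h, so it was up as early as Mfsd2a and Lpin1. At 12 to 30 h 1 was lowered, Acsl3, a fatty acid activating enzyme of nascent droplets, by 0.74. Of 11 genes of lipolysis and lipase control 1 was lowered in each of the 3 phases, Pnpla3, an insulin-induced droplet protein, which fell by 0.89, 2.20 and 1.67. Of 16 triglyceride synthesis genes 1 was lowered, Gpam, the first acyltransferase of the pathway, by 0.73 at 12 to 30 h (adjusted p = 0.0496). Of 11 genes of VLDL (very low density lipoprotein) assembly and export limma called 0 in all 3 phases, and the median change at 12 to 30 h was 0.18.

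Of 13 genes of fatty acid uptake and carriage, 1 was raised at 12 to 30 h, Fabp4, a fatty acid carrier of adipocytes and macrophages, by 1.61 ± 0.27 (adjusted p = 0.00116), and 1, Vldlr, was lowered at 48 to 72 h. Of 13 PPAR alpha targets measured only Pdk4, a kinase that spares glucose, was raised at 1 to 6 h (by 3.21 ± 0.38, adjusted p = 3.58e-05) and at 12 to 30 h (by 2.17 ± 0.37, adjusted p = 0.0012). Pdk4 averaged 46.4 at time 0, 1549 at 6 h, 1212 at 18 h and 34.9 at 30 h, so that, like Cidec, it was back near time 0 at 30 h. Among 20 regulators of lipid storage, Cebpb and Ppargc1a were raised at 1 to 6 h. At 12 to 30 h Hif1a and Egfr were raised, and Mlxipl (log2 change -1.49 ± 0.21, adjusted p = 0.000171), Srebf1 (log2 change -1.68 ± 0.27, adjusted p = 0.000749) and Nr3c1 were lowered. Mlxipl and Srebf1 are the glucose and insulin responsive activators of fat synthesis.

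The fasting and glucocorticoid response list had most calls. Of 13 genes measured 6 were raised at 1 to 6 h (Sgk1, Zbtb16, Tat, G6pc, Igfbp1 and Irs2), 4 were raised and 1, Klf15, lowered at 12 to 30 h, and 3 were raised at 48 to 72 h. Igfbp1, a binding protein that insulin represses, rose by 5.47 ± 0.40 at 1 to 6 h (adjusted p = 1.21e-07). The median change of the list at 1 to 6 h was 1.59, beside 0.00 over all genes. Feeding was not recorded, and its part in these changes was not tested. The lists too were drawn up with earlier results of these data known, and 13 of their 193 genes, Plin1 among them, are not analysed here.

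**Figure D3:**
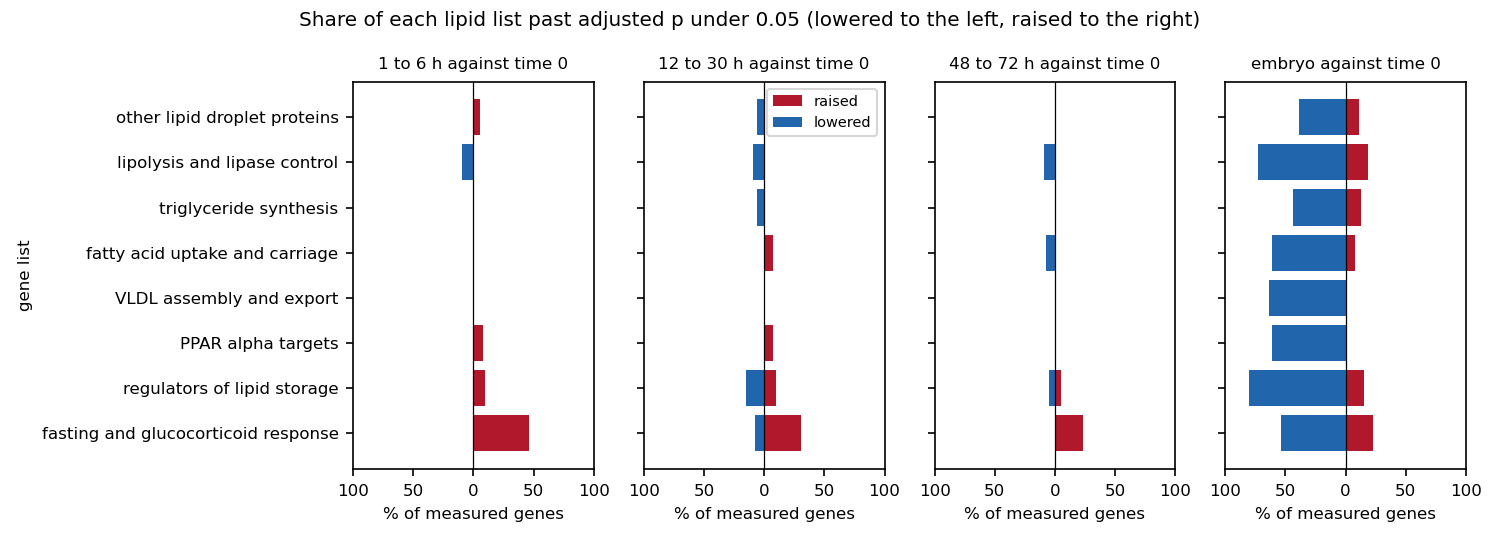
Share of the measured genes of 8 lists around the 9 genes that passed an adjusted p of 0.05, raised to the right and lowered to the left, at 1 to 6 h, 12 to 30 h and 48 to 72 h and in the embryo, each against time 0. The fasting and glucocorticoid response list has the longest bar after hepatectomy (6 of 13 raised at 1 to 6 h), the VLDL list has none there, and in the embryo most bars point left.

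Because Cidec, Plin4 and Fabp4 are also adipocyte genes, adipocyte markers were read beside them. Of 9 measured, 3 were raised at 12 to 30 h: Fabp4, Nrg4 and Ucp1, the last dim, at -13.6 to 35.5 on all adult arrays. Nrg4 averaged 446 at 12 h and 653 at 18 h against 64.6 at time 0, and Fabp4 712 and 1431 against 130.5. The summed level of the 9 markers was 604 to 2806 at 12 to 30 h and 615.4 and 629.7 at time 0. Adipoq, the defining adipocyte marker, was below 0 on all 20 adult arrays (-48.9 to -19.9), and Retn stayed at 73.2 to 144.5. Of 8 macrophage markers 1, Marco, was raised at 12 to 30 h, with a summed level of 2665 to 3969 there and 3359 and 3404 at time 0. At 48 to 72 h 4 of them (Adgre1, Cd5l, Marco and Timd4) were raised against time 0, with a summed level of 3232 to 6374, and 4 (Adgre1, Cd5l, Vsig4 and Timd4) were raised against 12 to 30 h. Their part in the falls of Plin2, Cidec, Angptl4 and Mfsd2a between these phases was not tested. Of 10 stellate cell and mesenchyme markers 1 was raised and 3 were lowered at 12 to 30 h. Of 8 hepatocyte markers limma called 0 in any phase, and of 8 cycling cell markers 0 were called at 1 to 6 h or at 12 to 30 h and 8 were raised at 48 to 72 h. The part of other cells in the rises of Cidec and Plin4 was not tested.

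Mfsd2a and Lpin1, the genes high from the first hour after hepatectomy, were low in the embryo. Against time 0 the mean of the 6 stages had 1 member raised (Plin4) and 4 lowered (Plin5, Angptl8, Mfsd2a and Lpin1), in a comparison where 30.9% of all genes were raised and 24.8% lowered. Plin5 lay at 4.80 to 71.1 on the 12 embryonic arrays (median 46.0), against 200.3 and 358 at time 0, and fell by 2.26 ± 0.28 (adjusted p = 5.82e-07). Mfsd2a lay at -1.04 to 25.0 (median 12.2), against 52.6 and 96.5, and fell by 1.74 ± 0.35 (adjusted p = 0.000227). Lpin1 lay at 17.8 to 72.9 (median 26.7), against 137 and 214, and fell by 1.99 ± 0.27 (adjusted p = 1.65e-06). None of the embryonic arrays overlapped with time 0 in these 3 genes, but the share of all genes without overlap was not counted. At the single stages between 2999 (16.5 dpc) and 3998 (11.5 dpc) of all genes were lowered against time 0. Plin5, Mfsd2a and Lpin1 were each lowered at all 6 stages. For Mfsd2a, 4 of these calls were lost when the first time 0 array was left out: the changes were then -0.99 at 10.5 dpc (adjusted p = 0.172), -1.10 at 11.5 dpc (adjusted p = 0.128), -1.40 at 12.5 dpc (adjusted p = 0.0524) and -1.28 at 14.5 dpc (adjusted p = 0.0775). Its call at 10.5 dpc was also lost without the second array of that stage (-1.10, adjusted p = 0.133), and that at 11.5 dpc without the first array of it (-1.43, adjusted p = 0.057). With a constant of 64 Mfsd2a was not called at 10.5, 11.5 or 14.5 dpc (adjusted p = 0.11, 0.0851 and 0.0625).

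Angptl8 lay at 55.8 to 133 in the embryo (median 113), against 228 and 805 at time 0, and fell by 1.92 ± 0.30 (adjusted p = 1.31e-05). It fell by 1.04 without the first array of time 0. At 13.5, 14.5 and 16.5 dpc the change was -1.66, -1.71 and -1.71, and -0.79, -0.83 and -0.84 without that array. Plin2 (673 to 1912, median 1586), Cidec (7.23 to 27.9, median 23.1) and Angptl4 (155 to 243, median 186) differed from time 0 by -0.42 ± 0.25, -0.25 ± 0.26 and -0.39 ± 0.29, with adjusted p-values of 0.169, 0.428 and 0.268. The high levels of Plin2, Cidec and Angptl4 at 12 and 18 h were not reached at these stages: the highest embryonic array, 1912 for Plin2, 27.9 for Cidec and 243 for Angptl4, lay below the lowest array of 12 and 18 h, at 5112, 299 and 770.1. These are the times at which the genes were high, and the share of all genes with such a gap was not counted.

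Lipid genes around these were mostly low in the embryo as well, in a comparison with 24.8% of all genes lowered and a median of 0.02 over all genes. Of 18 other droplet proteins 2 were raised and 7 lowered, with a median change of -0.27, and of 11 genes of lipolysis 2 were raised and 8 lowered (median -1.26). Of 16 triglyceride synthesis genes 2 were raised and 7 lowered (median -0.34), and of 13 uptake genes 1 was raised and 8 lowered (median -0.70). The VLDL list had 7 of 11 lowered (median -1.38), and the PPAR alpha targets 8 of 13 (median -1.26), with 0 raised in either. The summed hepatocyte markers were at 10030 to 30620 on embryonic arrays, against 33520 and 37950 at time 0, and the summed erythroid markers at 2507 to 22000, against 1006 and 1260. The part of cell composition in the low levels of Plin5, Angptl8, Mfsd2a and Lpin1 was not tested.

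Plin4 was the only member raised in the embryo, at 20.5 to 73.5 (median 46.3), against 6.15 and 34.6 at time 0, by 0.84 ± 0.29 (adjusted p = 0.0164). All its embryonic values are below the median of all values, and leaving out the second time 0 array gave 0.25 (adjusted p = 0.6). Plin4 is expressed in muscle, and heart muscle genes were high in some embryonic groups: Actc1 had 6147 and 5044 at 10.5 dpc and 1958 and 4320 at 12.5 dpc, against 94.1 and 107 at 11.5 dpc and -18.5 to 15.4 on adult arrays. Of 9 striated muscle markers 7 were raised and 1, Ckm, was lowered in the embryo. Their summed level was 532 to 14790, against 285 to 407 at time 0. Plin4 itself averaged 34.1 at 10.5 dpc, 30.8 at 11.5 dpc, 61.2 at 12.5 dpc and 42.7 at 13.5 dpc. It averaged 54.1 at 14.5 dpc and 51.3 at 16.5 dpc. With 10.5 and 12.5 dpc left out Plin4 was 0.83 above time 0 on the log2 scale (adjusted p = 0.02), while Actc1 was still at 94.1 to 898 on the arrays kept. The part of muscle in the level of Plin4 was not tested.

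**Figure D4:**
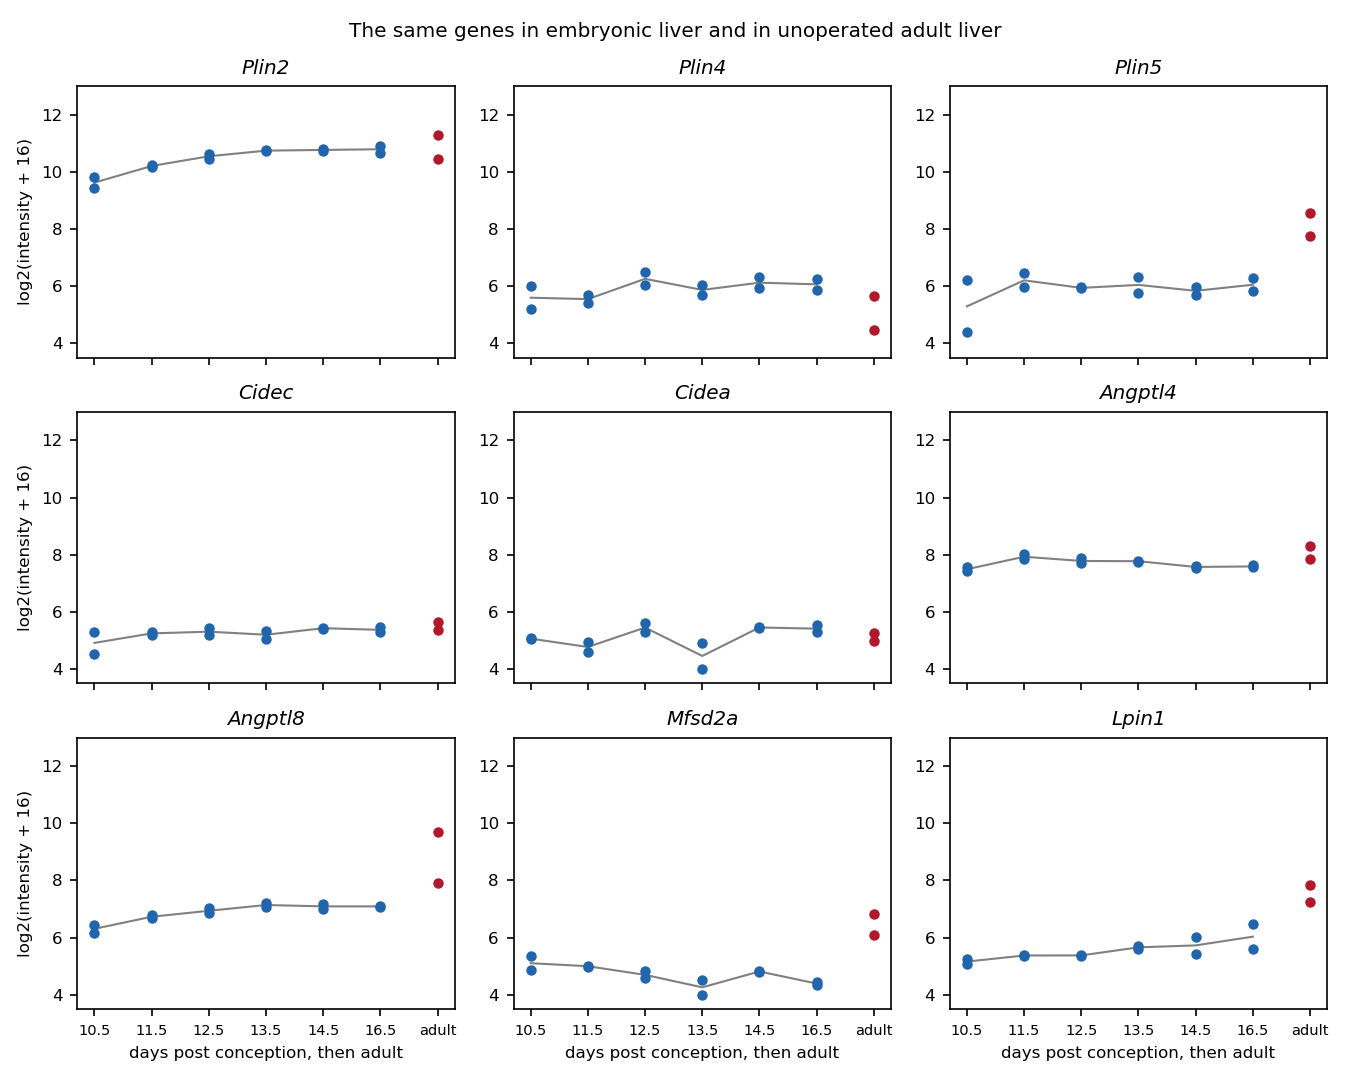
Level of each gene, as log2(intensity + 16), on the 12 embryonic arrays (blue points by days post conception, line through the group means) and on the 2 adult arrays of time 0 (red points, at the right). Plin5, Angptl8, Mfsd2a and Lpin1 lie below both adult arrays at every stage, and Plin2 is lowest at 10.5 dpc. The share of all genes below both adult arrays was not counted.

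Along development 2 members were raised per day, Plin2 and Lpin1, and 0 were lowered, against 16.4% and 11.5% of all genes. Plin2 had 673 and 883 at 10.5 dpc, 1179 and 1143 at 11.5 dpc, 1567 and 1387 at 12.5 dpc, 1667 and 1718 at 13.5 dpc, 1772 and 1673 at 14.5 dpc, and 1604 and 1912 at 16.5 dpc. Its groups from 12.5 dpc on overlapped with time 0, and those of 10.5 and 11.5 dpc lay below it. The array of 10.5 dpc with the high Gapdh ratio held the lowest embryonic values of Plin2 (673), Plin5 (4.80) and Cidec (7.23). Also lowest there were Plin4 (20.5), Angptl4 (155), Angptl8 (55.8) and Lpin1 (17.8), while Mfsd2a was at its embryonic highest (25.0). The part of RNA quality in these values was not tested. The slope of Plin2 was 0.18 ± 0.05 log2 units per day (adjusted p = 0.00717), and 0.11 (adjusted p = 0.292) with 10.5 and 12.5 dpc, the stages with high heart muscle genes, left out; without the second array of 16.5 dpc it was 0.16 (adjusted p = 0.0644). Lpin1 rose by 0.14 ± 0.05 per day (adjusted p = 0.0425), a call lost in 6 of 12 alternative settings and on leaving out 12 of the 32 arrays in turn (0.08 without the first array of 16.5 dpc, adjusted p = 0.389). In the F test over the 6 stages 1 member, Cidea, was called, against 21.2% of all genes, at levels of -0.997 to 33.1 that are below the median of all values.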

How the data were processed

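Liver RNA of CD-1 mice was measured on 32 Affymetrix Mouse Genome 430 2.0 arrays, 2 in each of 16 groups read from the sample titles, from Trizol-extracted RNA labelled as biotinylated cRNA, per the labels' protocols. The authors deposited 1 intensity per probe set and array on a linear scale, some of them below 0; the software and normalization behind them were not given in the sources used here. The 9 genes, the phases and the gene lists were chosen with earlier results of these data known. Of 45101 probe sets, 34958 had 1 gene symbol, which gave 18194 genes, each by its probe set of highest mean.

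Negative intensities were replaced by 0, and log2(intensity + 16) was fitted with R 4.3.3 and limma 3.58.1 (1 mean per group, all 32 arrays, eBayes with a trend, 16 residual and 4.72 prior degrees of freedom). Adjusted p-values are limma's with Benjamini-Hochberg adjustment over all genes of a comparison, called at 0.05. The number of arrays limits the precision. Besides the 9 genes, up to 4 called genes of smallest p were named per list and phase, with others named to make up a count of 5 or fewer, and the 3 genes of highest r per member. Defining markers of other cell types were read in all groups. Alternatives changed the constant, the scaling, the probe set per gene, a filter on dim genes, the variance model, array weights, a replicate block, the arrays in the fit and each array in turn.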

Additional observations from a re-analysis of the deposited data

How the results depend on the processing

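The 70 called values of single genes were repeated 785 times under alternatives other than leaving out 1 array. Of these repeats 724 kept the call and 61 lost it. Most of the 61 came from the fit of only the arrays compared. A further 2240 repeats left out 1 array each. Most of the 2240 left out an array outside the comparison, which cannot move the change and alters only the spread. Some calls were lost in these repeats, as given for single genes above. The direction changed in 0 of all repeats. The number of genes called depended most on the arrays in the fit. With only the arrays compared it was 1 at 1 to 6 h (Mfsd2a) and 1 at 48 to 72 h against 12 to 30 h (Cidec). It was 0 at 12 to 30 h (with limma, where 2674 of all genes had an unadjusted p under 0.05). In such fits it was 4 in the trend per day, 4 in the F test over 9 times and 2 in that over 6 stages. Over all genes such fits called 65 raised and 14 lowered at 1 to 6 h and 80 and 33 at 12 to 30 h. At 48 to 72 h they called 0 and 0 with limma (1194 at an unadjusted p under 0.05). At 48 to 72 h against time 0 the count was 1 (Angptl8) with a constant of 64, quantile normalization, 75th percentile scaling or the replicate block, and 3 (Angptl4, Angptl8 and Lpin1) with both arrays of 48 h left out, an alternative chosen after seeing the data. At 48 to 72 h against 12 to 30 h it was 2 with array weights. The trend per day gave 1 with a constant of 64, quantile normalization, 75th percentile scaling, the mean of probe sets or array weights, and 1 (Cidea) with 10.5 and 12.5 dpc left out, also chosen after seeing the data. The F test over 6 stages gave 2 with a constant of 1, quantile normalization, no variance trend or array weights. Leaving out each array gave 2 to 6 genes at 12 to 30 h, 0 to 1 at 48 to 72 h, 1 to 3 in the trend and 1 to 2 in the F test over 6 stages. The causes were not tested. Over all genes the trend called 2977 raised and 2099 lowered, but 2351 and 2521 with quantile normalization and 2449 and 2663 with 75th percentile scaling.

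The replicate numbers of the groups do not pair the arrays: differences between replicates correlated between groups at -0.357 to 0.555 (median -0.006, 17 of 120 pairs over 0.1), and with the replicate block the counts were 3, 5 and 1 in the 3 phases.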
